A study of Mus musculus with 4 samples.

Results

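The miRNAs of the imprinted Dlk1-Dio3 locus were examined in bronchoalveolar stem cells (BASCs), lung stem cells of the junction between bronchiole and alveolus, with and without depletion of c-Myc. The members are all mouse assays on the cards that carry the miRNA numbers of this locus, whatever the letter or arm, with passenger-strand (star) assays left out. This gave 47 of the 517 mouse miRNA assays, 42 on card A and 5 on card B, from 40 miRNA genes. Of the 41 miRNA numbers of the rule, 38 had such an assay. RNA was measured in 4 samples, 2 from each group. The cells of both groups came from lungs of ICR mice aged 4 to 6 weeks, were sorted as CD31neg, CD45neg, CD34pos and ScaIpos, and were plated on irradiated mouse embryonic fibroblast (MEF) feeders. Depletion was done, per the study's methods, with a lentivirus carrying c-Myc shRNA, and stable lines were selected with puromycin. The study used 2 different c-Myc shRNAs. Which of them each depleted sample carried, and whether these samples were stable lines, is not given. The study's methods describe a negative control lentivirus, while its text also calls the controls wild type. The cards hold no assay for c-Myc mRNA, so the depletion was not checked here. For later passages the study's methods name MEF feeders and its results name dishes coated with collagen, so that the share of feeder cells in the RNA is not known here, and nothing says that the 2 samples of a group came from separate cultures, so the spread between them may be technical.

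The Dlk1-Dio3 locus is expressed from the paternal chromosome for its protein-coding genes Dlk1, Rtl1 and Dio3, and from the maternal chromosome for the long noncoding RNAs Meg3, Rian and Mirg, among which the miRNA genes lie. Its miRNAs are known from the embryo, the placenta and the brain, and their expression marks mouse pluripotent stem cells of full developmental potential. c-Myc is a transcription factor known to act on many miRNA genes, and the comparison of the groups asks which miRNAs differ when c-Myc is depleted.

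By the RefSeq annotation of GRCm38.p6, the hairpin genes of all 47 assays lie on chromosome 12, from Mir770 at chr12:109563692-109563785 to Mir410 at chr12:109743715-109743795, a span of 180.1 kb. They start 111.2 to 291.2 kb after the start of Dlk1 (chr12:109452485-109463336). The upstream group, from Mir770 to Mir370, lies along Meg3, Rtl1 and Rian and had 15 assays. The downstream group, from Mir379 to Mir410, lies toward and within Mirg and had 32. RefSeq mature sequences matched 44 of the 47 assays. All 44 seeds (bases 2 to 8, which pair with target mRNAs) were distinct, so that no 2 of these members shared a seed. The sequences below are those of the 4 members read in these cells, of miR-376a as the unread neighbour of miR-376b, and of miR-127 as an upstream member. Capitals mark the seed, and each is written 5′ to 3′.
miR-494-3p: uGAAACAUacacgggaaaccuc
miR-376b-3p: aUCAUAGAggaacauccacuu
miR-376a-3p: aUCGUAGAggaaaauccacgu
miR-667-3p: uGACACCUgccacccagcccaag
miR-410-3p: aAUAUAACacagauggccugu
miR-127-3p: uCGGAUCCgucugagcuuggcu

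The miR-376b and miR-376a sequences have 21 bases each and differ at 3 positions, counted from the 5′ end and written with the base of miR-376b first: A4G, C13A and U20G. The first of these lies in the seed. Across the whole table of mature mouse miRNAs, 8 members shared a seed with a miRNA that is not a member. For miR-379 it was miR-1193-5p, whose gene lies in the locus as well. Of these other miRNAs, miR-362-3p, which has the seed of miR-329, had an assay of its own mature name on the cards.

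Nearly all miRNAs of the locus were not read in BASCs, in either group. The readout of an assay is its threshold cycle, CT, reached when the amplified product passes a set level, so that a lower CT means more RNA and 1 cycle is 1 on the log2 scale. Wells without a reading or with a later one than cycle 35 were given the value 35, the ceiling, and a miRNA was called detected below it. Only 4 of the 47 members (8.51%) were below CT 35 in at least 1 sample, against 259 of the 470 other mouse miRNAs (55.1%). Those 4 were miR-494, miR-376b, miR-667 and miR-410. Another 40 members (85.1%) gave no CT in any well of any sample, against 196 of the 470 others (41.7%). These are bulk samples, in which fewer cells of a type and less RNA per cell cannot be told apart.

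The low count held on both cards and in each sample. On card A, 4 of the 42 members (9.52%) and 170 of the 293 other mouse miRNAs (58.0%) were detected, and on card B none of the 5 members and 89 of the 177 others (50.3%). Control replicates 1 and 2 had 3 members each below the ceiling, c-Myc depleted replicate 1 had 3 and replicate 2 had 2, while 229, 222, 224 and 224 of all 517 mouse miRNAs were read in the same samples. In all 4 samples, 2 members and 187 of the 470 others were read. No member was read in both samples of 1 group and in neither of the other, a pattern that 3 of all mouse miRNAs showed for control BASCs and 5 for depleted BASCs. Each sample had a CT in 334 to 351 of its 768 wells.

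The 4 detected members all lay in the downstream group, where they were 4 of 32 (12.5%), against 0 of 15 upstream. Only 2 of these 4 were read in all samples, and the split between the position groups was not tested. The upstream group holds miR-127, miR-136, miR-431, miR-433 and both arms of miR-434, which lie antisense to Rtl1 and are known to cut its mRNA, and none of these had a CT in any sample. Its only reading was miR-337-5p, at CT 35.93 in control replicate 1 alone. Downstream, miR-376c read 35.97 in control replicate 1 alone, and miR-411 read 36.94 in control replicate 2 alone. All 3 values are above the ceiling and count as not detected, and they were all in control samples.

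**Figure D1:**
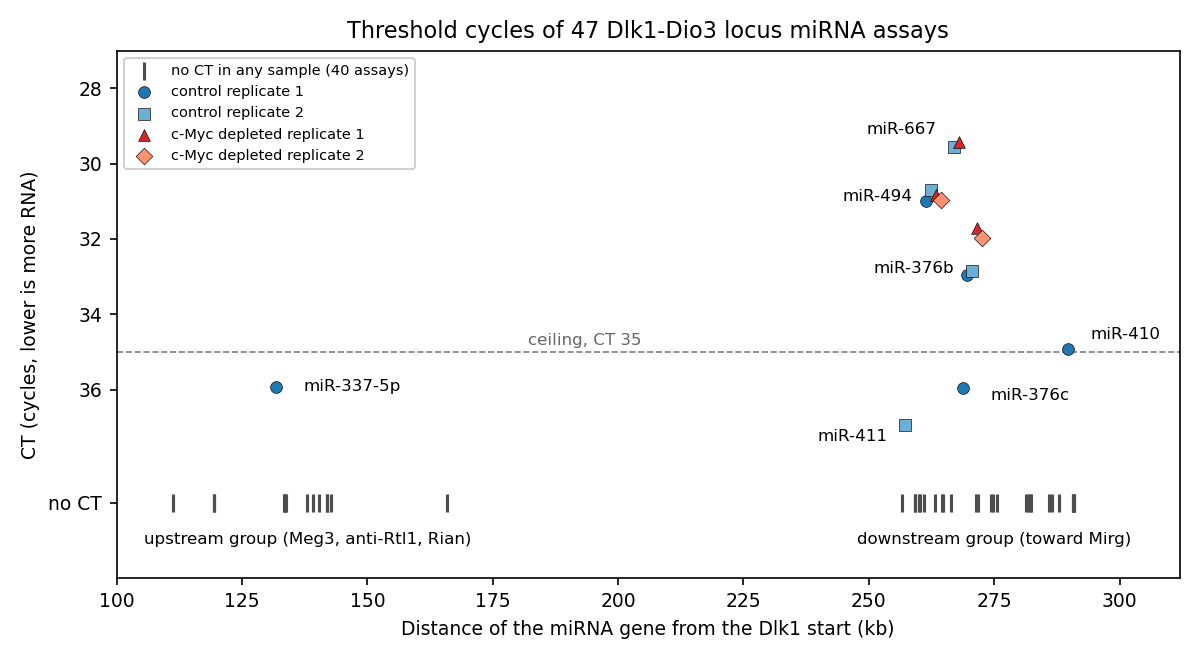
Threshold cycle (CT, in cycles, axis reversed so that more RNA is higher) of the 47 assays against the distance of each miRNA gene from the start of Dlk1 in kb, with the values of 1 assay spread slightly sideways by sample. Vertical ticks at the bottom are the 40 assays with no CT in any sample, and CT values under 35 are found for 4 members, all of the downstream group.

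Well-known downstream members were among those with no CT in any sample: miR-134, which acts at the synapses of neurons, miR-379, the first miRNA of the downstream group, and miR-154, miR-377, miR-381, miR-382, miR-485, miR-495, miR-539 and miR-543. The hairpins of miR-673, miR-337, miR-540, miR-434, miR-380, miR-409 and miR-369 were each assayed for both arms, and none of these arms was detected, so arms could not be compared. Detected members stood next to unread ones. Mir376b (chr12:109723458-109723539) lies between Mir376c (chr12:109722718-109722803) and Mir376a (chr12:109723781-109723848), of which the former had only the reading above 35 and the latter no CT in any sample. Mir494 (chr12:109715318-109715402) lies between Mir329 and Mir679, neither of which gave a CT.

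Other assays of the locus were at the ceiling too. None of the 13 star assays of the same numbers gave a CT. Of 5 further mouse miRNAs of the locus that the rule leaves out (miR-453, miR-493, miR-544 and both arms of miR-654), none was below 35, and only miR-544 gave a reading, above the ceiling in c-Myc depleted replicate 1. The 10 rat assays of locus miRNAs gave no CT, while 15 of all 67 rat assays on the cards were read. No sample known to express the locus was run on these cards, so whether each assay works cannot be read from these data.

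miRNAs of other imprinted loci were read more often. There, 5 of 7 were below 35 in at least 1 sample: miR-298 and both arms of miR-296, which lie together near the imprinted gene Nespas, and both arms of miR-335, from an intron of Mest. Only 2 of the 7, miR-296-5p and miR-298, were read in all samples. Both arms of miR-675, made from the imprinted noncoding RNA H19, were at the ceiling in every sample. On chromosome 12 outside the locus, in a comparison chosen after the values were seen, miR-342-3p read 27.50 and 27.97 in control BASCs and 27.67 and 27.97 in depleted BASCs, from a gene at -793.9 kb from the Dlk1 start. The other 4 assays looked at there were read less: miR-342-5p and miR-203 were at the ceiling in all samples, miR-345-3p was below it in control replicate 2 alone, at 34.97, and miR-345-5p was at the ceiling in control replicate 1 and read 31.21, 31.60 and 33.01 in the other samples. miR-362-3p, with the seed of miR-329, was at the ceiling in control replicate 1 and read 34.8 in control replicate 2 and 33.7 and 33.9 in the depleted samples, while miR-329 itself gave no CT.

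**Figure D2:**
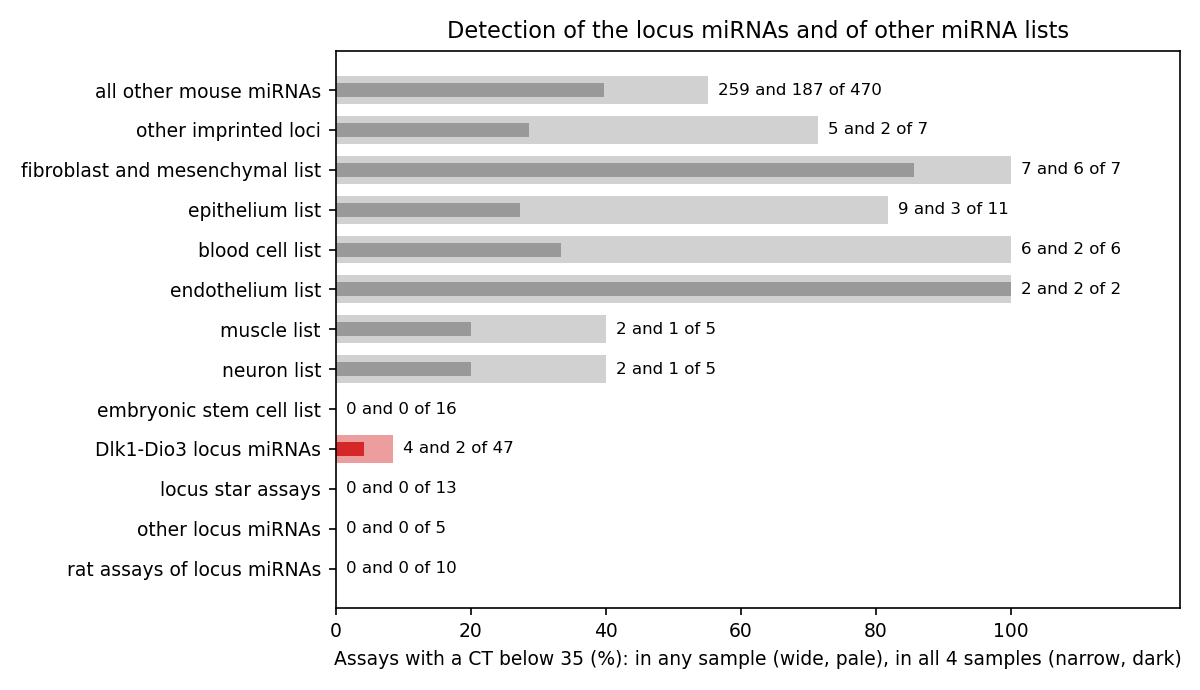
Percent of assays with a CT below 35 in each list of miRNAs, in at least 1 sample (wide pale bars) and in all 4 samples (narrow dark bars), with both counts and the number of assays beside each bar. Lists of the Dlk1-Dio3 locus are red: 4 and 2 of 47 members were read, and none of the star, rat or other assays of the locus.

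The lists of miRNAs typical of other cells place these values. All 7 assayed miRNAs of the fibroblast and mesenchymal list were detected, 6 of them in all 4 samples and miR-199a-5p in 2, with miR-145, known from smooth muscle and fibroblasts, at CT 24.98 and 24.88 in control and 24.99 and 24.83 in depleted BASCs. None of the 16 assays of the embryonic stem cell list (the miR-290 and miR-302 clusters) was below 35. The epithelium list had 9 of 11 read, of which miR-182, miR-183 and miR-200c were read in all samples. miR-182 read 28.64 and 28.95 in control BASCs and 28.74 and 28.98 in depleted BASCs, and miR-183 31.87 to 33.00. The list's members miR-203 and miR-205 were at the ceiling throughout, and miR-200c, an epithelial marker, read 32.99 and 33.99 in control BASCs and 33.98 and 33.38 in depleted BASCs. The labelled cell type is a lung epithelial stem cell, and fibroblast and mesenchymal miRNAs were read beside these epithelial ones. The endothelium list had 2 of 2 assays read, the blood cell list 6 of 6, the muscle list 2 of 5 and the neuron list 2 of 5.

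Control replicate 1 stood apart in these lists. It had 8 epithelial and 6 blood cell miRNAs below the ceiling, where the other samples had 3 to 5 and 2 or 3. It was also the sample with the single reading of miR-410 and with those of miR-337-5p and miR-376c, and the part of other cells in these faint readings was not tested.

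miR-494 was the best measured member. Its CT was 30.98 and 30.71 in control BASCs and 30.84 and 30.97 in depleted BASCs, so that the groups overlapped. Against U6, a small nuclear RNA used as the reference, ΔCT (the CT minus the mean U6 CT of the same card) was 12.09 and 11.60 in control and 11.98 and 12.13 in depleted samples, or 11.8 ± 0.341 and 12.1 ± 0.106 (mean ± SD, n = 2). The values lay 4.02 to 4.29 cycles below the ceiling, and miR-494 ranked 114 of the 178 miRNAs measured in all samples, from the highest level down. CT sets assays against each other only roughly, because assays differ in efficiency. The log2 change after c-Myc depletion was -0.21 (SE 0.25, 95% interval -0.88 to 0.45), with an adjusted p of 0.662 by limma. The interval spans folds of 0.543 to 1.37, so this number of samples does not show that the level was equal.

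miR-376b, known to act on mRNAs of the autophagy genes Atg4c and Becn1, was the other member measured in all samples. Its CT was 32.96 and 32.86 in control BASCs and 31.71 and 31.97 in depleted BASCs. Both depleted samples were lower in CT, and so higher in level, than both control samples, with pairwise differences of 0.9 to 1.25 cycles. ΔCT was 14.1 and 13.8 in control and 12.8 and 13.1 in depleted samples, or 13.9 ± 0.217 and 13.0 ± 0.199 (mean ± SD, n = 2). The log2 change was 0.92 (SE 0.23, 95% interval 0.31 to 1.54), a 1.9-fold higher level after depletion (interval 1.24 to 2.9), with an adjusted p of 0.078 by limma, Benjamini-Hochberg over the 178 miRNAs. The difference did not pass the adjusted threshold of 0.05, and its fold was under the limit of 2 of the study's criteria. An exact two-sided permutation test of 2 samples against 2 cannot give a p below 0.333.

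Many other miRNAs differed in the same fit. Of the 178 miRNAs, 102 (57.3%) had groups that did not overlap, 62 of them (34.8%) with both depleted samples higher. miR-376b was 1 of these 62. Without adjustment, 59 of 178 (33.1%) had p below 0.05 in limma, 45 of them (25.3%) higher after depletion, and 39 (21.9%) by the per-miRNA test that the methods name. After adjustment, limma called 10 of 178 (5.62%), 9 of them (5.06%) higher after depletion, and the methods' test 2 (1.12%). Neither member was among the calls after adjustment, and miR-376b was among the 59 and the 39 before it. In size, 37 miRNAs changed more than miR-376b. The median log2 change of the 2 members was 0.35, against 0.11 over all 178 and 0.41 over the 130 of card A, the card of both members.

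**Figure D3:**
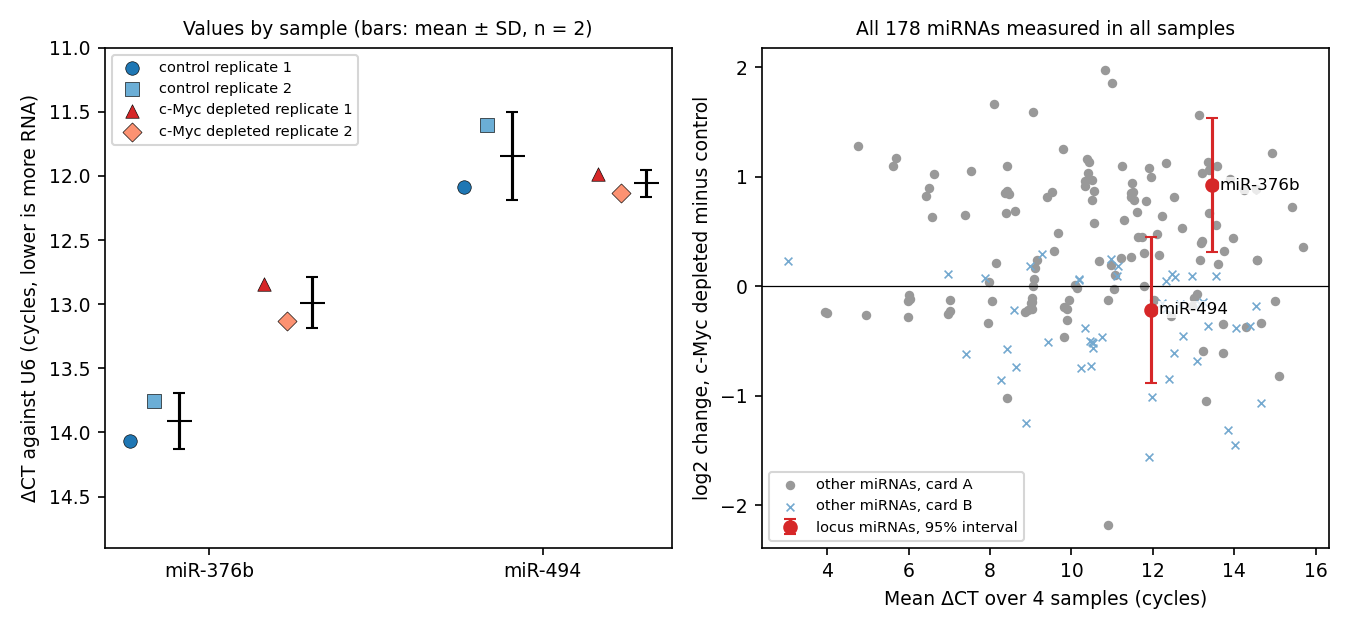
Left, ΔCT against U6 (in cycles, axis reversed so that more RNA is higher) of miR-376b and miR-494 in each of the 4 samples, with the mean and SD of each group of 2. Right, log2 change after c-Myc depletion against mean ΔCT for all 178 miRNAs measured in every sample, where miR-376b at 0.92 and miR-494 at -0.21 (95% intervals) lie within the range of the other card A miRNAs.

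The 2 members, both of the downstream group, were also set against each other within each sample, which needs no reference RNA. miR-376b lay 1.98 and 2.15 cycles above miR-494 in control BASCs and 0.86 and 0.99 cycles above it in depleted BASCs. The groups did not overlap, with means of 2.07 ± 0.12 and 0.93 ± 0.09 (SD, n = 2), a difference of 1.14 cycles. This difference restates the log2 changes of 0.92 and -0.21 from the same values, so it is no separate support. How many other pairs of miRNAs had such groups was not counted, while 102 of the 178 single miRNAs (57.3%) had groups without overlap. The call for miR-376b depended on the reference. Its adjusted p by limma was 0.024 on CT values with no normalization, where 35 of the 178 miRNAs (19.7%) were called, 34 of them (19.1%) as higher, while centring within each card gave a log2 change of 0.42 with an adjusted p of 0.688.

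Values within a cycle were not spread evenly, which touches a difference of about 1 cycle such as that of miR-376b. Over all wells and samples, 479 of 1366 CT values (35.1%) had a fractional part of 0.95 or more, where an even spread gives 5%. Among the readings of the locus it was 5 of 14 (35.7%). In the 159 single-well assays read in all samples, 42.6% of the 636 differences between a control and a depleted sample lay within 0.1 of a whole cycle. Evenly spread differences would give 20%. Differences near no change count among them, and miRNAs of unchanged level give these in any case. The excess over 20% therefore cannot be ascribed to the uneven spread within a cycle. The part of the uneven spread within a cycle in the result for miR-376b was not tested.

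**Figure D4:**
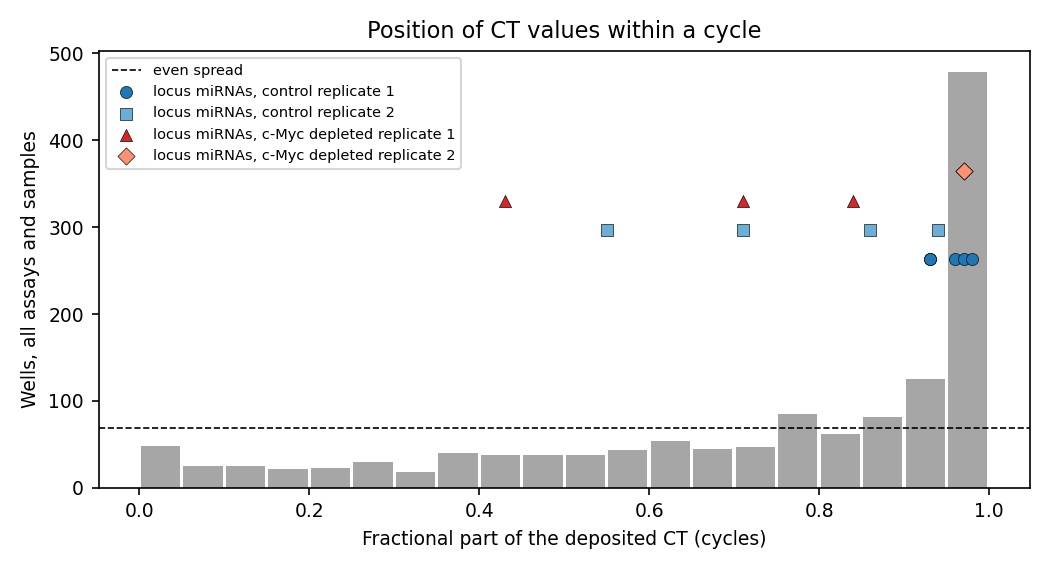
Number of wells by the fractional part of the deposited CT in cycles, over all assays and samples (grey bars, 1366 values, dashed line for an even spread), with the 14 readings of the locus miRNAs as points by sample, placed at a height that carries no value. Of all values 35.1% lie at 0.95 or above, as do 5 of the 14 locus readings.

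miR-667 was read in 1 sample of each group. It had no CT in control replicate 1, 29.55 in control replicate 2, 29.43 in c-Myc depleted replicate 1 and no CT in c-Myc depleted replicate 2. Both readings were lower in CT than any of miR-494, and the 2 groups had the same pattern. With the missing wells at the ceiling its log2 change was -0.09, which was not tested in the fit over miRNAs measured in all samples. The change was -2.92 without control replicate 1 and 2.74 without control replicate 2. Of the 100 single-well mouse assays with a CT below 30 in some sample, 5 (5%) had no CT in another, and miR-199a-5p was the other of these with a reading in 1 sample of each group.

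miR-410, the member farthest from Dlk1, read 34.93 in control replicate 1 and gave no CT in the other 3 samples. It was thus just inside the limit of detection in a single well. Its log2 change of -0.19 rests on ceiling values and on U6, and was not tested in the fit over miRNAs measured in all samples.

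The methods give a formula that turns CT into copies per cell. On this scale the ceiling corresponds to 1.43 copies. miR-376b came to 5.83 and 6.23 copies in control BASCs and 13.8 and 11.6 in depleted BASCs, and miR-494 to 22.8, 27.5, 25.1 and 22.9 in the same order of samples. miR-667 came to 61.2 copies in control replicate 2 and 66.5 in c-Myc depleted replicate 1, and was at the ceiling in the other samples. These values take CT as it stands, with no reference RNA and the same efficiency for every assay.

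The study's own criteria had no bearing on the locus, since its filter asks for a lowest ΔCT below 10. Of the 80 miRNAs passing the filter, 16 (20%) met the criteria by limma: a fold above 2 and an unadjusted p below 0.05. None of the 80 was a member. Without the filter, 37 of 263 detected miRNAs (14.1%) met the criteria by limma and 0 of the 4 detected members did. The study took its p-values from the per-miRNA test that its methods name, so these limma counts do not repeat its own count.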

How the data were processed

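The authors deposited threshold cycles (CT, PCR cycles) for 4 samples run on TaqMan low density arrays, with no normalization applied; Partek 6.4 is named in the submitters' processing notes. Groups and replicate numbers were taken from the sample labels. CT was limited to 35, also for wells without a reading, duplicate wells were averaged, and the mean of the 4 U6 wells of the same card was subtracted (ΔCT). Changes were tested with limma 3.58.1 (R 4.3.3; functions lmFit and eBayes, values of minus ΔCT, Benjamini-Hochberg adjustment) over 178 mouse miRNAs with a CT below 35 in every well of all samples, and over the 80 with a lowest ΔCT below 10. Tables and figures used Python 3.11.15, numpy 2.4.6, pandas 2.3.3 and matplotlib 3.10.9. The limma fit was tested on simulated data, to which no ceiling was applied. The number of samples limits the precision, and p-values measure only the spread between these samples.

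Members named with all values were those past a threshold, the 6 of lowest mean ΔCT (only 4 had any value below the ceiling, the others being tied), those read in 1 group alone, and those sharing a hairpin or seed with a detected member. The members, the lists and the tests were chosen with earlier results of these data known. Assays named without an arm were assigned to the arm usually meant by that name. Sequences and positions are from RefSeq, GRCm38.p6. Alternatives changed the normalization, the ceiling, the filter, the treatment of wells with no CT, the variance model, the test and the samples.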

Additional observations from a re-analysis of the deposited data

How the results depend on the processing

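The ΔCT filter of the study's criteria kept every member out of the test, so the count of 0 there was fixed in each alternative but that without the filter, where 4 members were tested and 0 met the criteria. Among miRNAs measured in all samples the count of called members stayed at 0 except with no normalization, where it was 1 (miR-376b). The count of detected members was 4, and 2 when a CT below 35 was asked for in all samples or in both samples of a group. The median log2 change of the measured members, 0.35, was -0.15 with centring within each card, 0.05 with snoRNA135 and snoRNA202, 0.07 with U6 over both cards, 0.07 with quantile normalization, -0.21 with a ceiling of 32 (1 member) and -0.14 over the 4 members below 35 in at least 1 sample. The cause was not tested, except that the last 2 hold other members. Leaving out single samples gave 0.16 to 0.55 for this median, and 0 called members throughout. miR-376b had a log2 change of 0.42 to 1.08 over 14 tested alternatives, and of 0.01, untested, with a ceiling of 32. In many of the 14 the sign could not change. The estimate stays 0.92 with another variance model, test, block or treatment of wells with no CT. Leaving out a single sample keeps the sign, since both depleted samples lay above both control samples in level. Adjusted p by limma was 0.024 with no normalization, the only value below 0.05, and 0.688 with centring within each card. miR-494 ranged from -0.72 to 0.03 over 15 alternatives (adjusted p 0.175 to 0.976). Leaving out single samples gave -0.46 to 0.03, the last without control replicate 2. The labels number the replicates but do not say whether equal numbers were paired. The differences between replicates correlated at -0.0259 over 178 miRNAs, which cannot settle this, because unpaired and noisy paired samples can both give such a value. With the replicate number as a block, the log2 changes stayed 0.92 (adjusted p 0.152) and -0.21 (adjusted p 0.74), with 0 members called. The ceiling of 35 cycles limits the statement on the members not detected: levels below about 1.43 copies per cell cannot be told from none.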

Other observations

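A decimal part of 0.95 or more was found for 33.9% and 39.4% of the CT values of control replicates 1 and 2, and for 21.6% and 45.2% of those of c-Myc depleted replicates 1 and 2. It was 42.9% on card A, the card of miR-376b and miR-494, and 26.6% on card B, while the U6 wells had 4 of 32 (12.5%). Of the 14 readings of locus miRNAs, 5 (35.7%) had such a decimal part, close to the 36.7% of the 1156 readings of other mouse miRNAs.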
